A study of Mus musculus with 8 samples.

Results

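The aminoacyl-tRNA synthetase genes were taken as the 36 symbols of a fixed list of these enzymes, out of the 24421 gene symbols counted in each library. Of these, 20 encode cytosolic enzymes and 16, with symbols ending in 2, encode mitochondrial ones. All 36 genes passed the expression filter, and the lowest count of any of them in any library was 275, for Nars2.

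Naive CD4+ T cells were purified from spleens of C57BL/6 mice, labelled male and 6 to 8 weeks old, and their total RNA was sequenced. The samples contrast mice with a floxed Pcbp1 gene and Cd4-Cre (Pcbp1fl/flCd4-Cre) with Pcbp1+/+Cd4-Cre mice, called wild type in the labels, so per the genotype fields the controls carry the Cre too. Cd4-Cre acts from the double-positive thymocyte stage, so it deletes in CD8 as well as CD4 T cells. PCBP1 is an RNA-binding protein of C-rich sequences, also called hnRNP E1. The titles name 4 E1KO and 4 E1WT libraries, and in all 8 the genotype field states the opposite of the title. Libraries are named by title here, and every fold is E1KO over E1WT. By the genotype field each direction would be the reverse. Pcbp1 lay at 38.3 to 41.8 CPM (counts scaled to the size of the library) in E1KO-titled libraries and at 203 to 243 CPM in E1WT-titled libraries, which goes with the titles.

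Each aminoacyl-tRNA synthetase joins 1 amino acid to its matching tRNAs and so sets which amino acid a codon is read as. Cytosolic enzymes serve translation on cytoplasmic ribosomes. The mitochondrial enzymes are nuclear-encoded proteins that are imported to charge the tRNAs encoded in mitochondrial DNA. Many cytosolic synthetase genes are targets of ATF4, the transcription factor made when eIF2 is phosphorylated, for instance by the kinase GCN2 on uncharged tRNA. ATF4 binds a composite site called the C/EBP-ATF response element (CARE). Several cytosolic enzymes sit together in the multisynthetase complex, held by the scaffold proteins AIMP1, AIMP2 and AIMP3.

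Promoters of the cytosolic genes were searched for that element, because these genes are set against their mitochondrial counterparts in what follows. RefSeq promoters (GRCm38.p6, 250 bases before to 50 after the annotated start) were found for 27 of the 36 genes. The letters TGATGNAA, read on either strand, occurred in the promoters of 5 of 13 cytosolic genes (38.5%), in 0 of 14 mitochondrial genes and in 4.51% of all 27025 genes with a promoter. The 5 genes were Aars, Gars, Iars, Tars and Yars. For each gene the match nearest the start is shown with the bases around it, 5′ to 3′ on the gene's strand, with the matched letters in capitals.
Aars, just after the start, chr8:111033840-111033869, plus strand: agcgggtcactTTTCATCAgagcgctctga
Gars, 30 bases before the start, chr6:55037960-55037989, plus strand: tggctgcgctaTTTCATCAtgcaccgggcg
Iars, just after the start, chr13:49682126-49682155, plus strand: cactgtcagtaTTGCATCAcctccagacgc
Tars, 15 bases before the start, chr15:11399655-11399684, minus strand: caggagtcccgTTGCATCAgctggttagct
Yars, just after the start, chr4:129189895-129189924, plus strand: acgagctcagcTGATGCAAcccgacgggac
The matches shown for Aars, Gars, Iars and Tars read as the reverse complement of the motif, and that of Yars reads forward. A match is a description of these letters and does not show that a factor binds. RefSeq starts, used here, can differ from the GENCODE M21 gene ends given with the values: those of Aars, Iars, Tars and Yars lie inside the GENCODE gene.

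E-boxes (CACGTG), the site of MYC and related factors, occurred in 4 of the 13 cytosolic promoters (Aars, Farsb, Iars and Tars), in that of 1 of the 14 mitochondrial genes (Ears2) and in 8.09% of all genes with a promoter, and none overlapped a CARE match. The palindromic site of NRF1, a regulator of genes for mitochondrial proteins, was in 0 promoters of either class and in those of 1.07% of all genes.

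Libraries held 28264655 to 36738202 gene counts. Reads assigned to no gene made up 15.4% to 17.4% of counts in E1KO-titled and 19.1% to 22.4% in E1WT-titled libraries. The cells carried T cell markers at high levels, with Cd4 at 851 ± 26.1 and 1024 ± 38.2 CPM and Cd8a at 8.03 ± 0.84 and 11.05 ± 0.70 CPM in E1KO-titled and E1WT-titled libraries (SD, n = 4 each). Summed markers of some other cells were higher in every E1KO-titled library. Myeloid markers (5 of 7 higher) summed to 86.8 to 101 against 40.6 to 48.3 CPM, dendritic markers (6 of 6 higher) to 27.4 to 33.0 against 13.4 to 17.6 CPM, and NK markers (4 of 6 higher) to 121 to 139 against 84.6 to 96.3 CPM. Erythroid markers (2 of 4 tested higher, with 4 globin genes listed at 0 in every library) summed to 92.1 to 123 against 34.8 to 47.5 CPM, plasma cell markers (1 of 6 higher) to 831 to 1038 against 571 to 780 CPM, and cycling markers (6 of 10 higher) to 778 to 835 against 587 to 664 CPM. Summed B cell markers (1 of 6 higher and 1 lower) overlapped, at 222 to 238 and 209 to 239 CPM, as did those of CD8 cells (1 of 2 lower), at 20.3 to 27.9 and 25.4 to 31.0 CPM, while naive CD4 markers (1 of 8 higher, 3 lower) stood at 5260 to 5372 against 5903 to 6127 CPM. Although all mice are labelled male, Xist stood at 365 to 426 against 0.55 to 2.89 CPM, and Y-linked Ddx3y at 52.0 to 57.5 against 103 to 116 CPM, so titles and this signal cannot be told apart. None of the 36 synthetase genes lies on X or Y. The part that any of these shifts has in the values given here was not tested. In bulk RNA, fewer cells of a type and less RNA per cell cannot be told apart.

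Cytosolic synthetase genes were expressed at several times the level of the mitochondrial ones. Levels were compared per kilobase of exon, over all exons annotated in GENCODE M21, which understates genes with long rarely used exons. The median over the 20 cytosolic genes was 21.8 CPM per kb in E1KO-titled and 20.5 CPM per kb in E1WT-titled libraries, and the median over the 16 mitochondrial genes was 4.23 and 4.87 CPM per kb. Vars, the valyl-tRNA synthetase, led the cytosolic genes at 62.2 ± 1.69 and 59.4 ± 2.11 CPM per kb, followed by Sars for serine at 40.4 ± 1.73 and 35.9 ± 1.29. At the low end stood Nars2, the mitochondrial enzyme for asparagine, at 1.36 ± 0.16 and 1.61 ± 0.15 CPM per kb in E1KO-titled and E1WT-titled libraries. Cars, for cysteine, was the lowest cytosolic gene at 4.91 ± 0.12 and 4.30 ± 0.19 CPM per kb.

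Most neighbours in the order of levels were not clearly apart. Of the 35 pairs of neighbours in the order, 22 had overlapping library values in E1KO-titled and 24 in E1WT-titled libraries. Gars, Lars2 and Kars, for instance, overlapped in a chain at 32.3, 30.9 and 30.2 CPM per kb in E1WT-titled libraries. Vars and Sars each stood clear of the gene after them under either title. Lars2, the mitochondrial leucyl-tRNA synthetase, was the exception among mitochondrial genes, ranking 1 of 36 in E1KO-titled and 4 of 36 in E1WT-titled libraries.

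**Figure D1:**
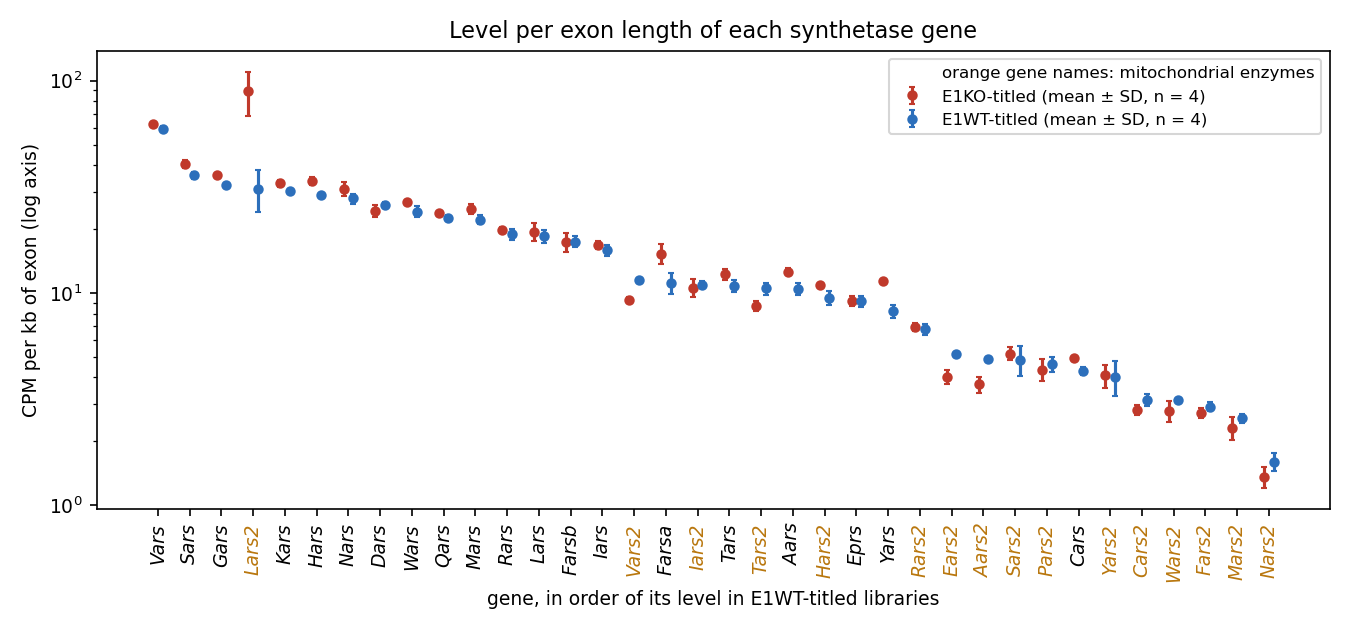
Level of each of the 36 synthetase genes in CPM per kilobase of exon on a log axis, ordered by the E1WT level, with the mean ± SD of the 4 libraries of each title. Most mitochondrial genes (orange names) lie below the cytosolic ones, and Lars2 stands at 89.2 CPM per kb in E1KO-titled against 30.9 in E1WT-titled libraries.

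Between the titles, the cytosolic and mitochondrial genes moved in different proportions. Of the 20 cytosolic genes 6 were higher in E1KO-titled libraries (30%) and 0 lower, and of the 16 mitochondrial genes 2 were higher (12.5%) and 4 lower (25%), in the edgeR quasi-likelihood test at an adjusted p of 0.05 over all genes. Across all 13333 genes tested, 12.2% were called higher and 11.1% lower, and 23.3% either way. At an unadjusted p under 0.05, 12 cytosolic genes had higher and 0 had lower values, against 2436 and 2357 of all 13333 genes tested. DESeq2 called 8 higher and 0 lower (1836 and 1888 over all genes), and limma-voom 7 and 0 (1603 and 1501). Counts by these measures in the lists further on are to be read against the same totals. The median log2 fold was 0.15 over the cytosolic genes, -0.12 over the mitochondrial genes and 0.01 over all genes tested. These groups were described by counts and medians, and no test was made of the difference between them.

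The number of genes called and the median folds depended on how libraries were scaled. With library totals in place of TMM scaling, 12 cytosolic genes were called higher and 3 mitochondrial genes lower, and the split over all genes went to 2257 higher and 1046 lower, against 1623 and 1485 with TMM. The median log2 fold of all genes was then 0.07. The CPM values below carry the TMM scaling.

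**Figure D2:**
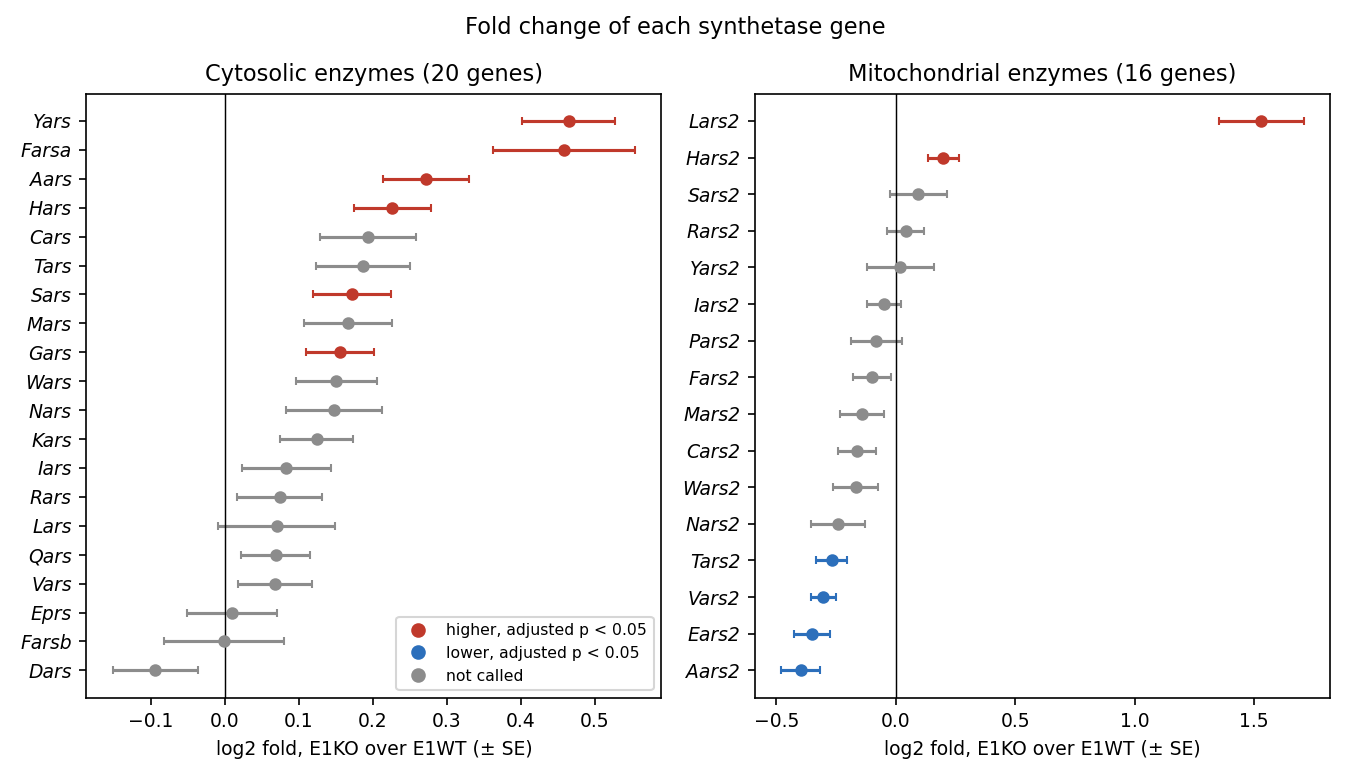
Log2 fold of E1KO-titled over E1WT-titled libraries with its standard error, for the cytosolic genes (left) and the mitochondrial genes (right), on axes of different range. Red points were called higher and blue points lower. Of the cytosolic folds 18 of 20 are positive and of the mitochondrial folds 11 of 16 are negative.

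Yars and Farsa had the largest rises among cytosolic genes. Yars, which charges tyrosine (chromosome 4, 129189760 to 129219607, plus strand, GRCm38), had 65.9, 66.7, 68.6 and 68.2 CPM in E1KO 1 to 4, against 44.4, 53.2, 48.1 and 49.2 CPM in E1WT 1 to 4. Every E1KO-titled library lay above every E1WT-titled one, with a gap wider than the spread within either title. The log2 fold was 0.47 ± 0.06 (SE, edgeR adjusted p = 0.00034). Yars is 1 of the genes with a CARE match.

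Farsa encodes the alpha subunit, which carries the catalytic site, of the phenylalanyl-tRNA synthetase tetramer, and Farsb encodes its beta subunit. Farsa (chromosome 8, 84856989 to 84869257, plus strand) had 59.7, 68.4, 78.0 and 72.1 CPM in E1KO 1 to 4, against 52.7, 56.7, 49.6 and 43.4 CPM in E1WT 1 to 4. The titles did not overlap, though E1KO 1 and E1WT 2 came within a few CPM of each other. The log2 fold of Farsa was 0.46 ± 0.10 (SE, edgeR adjusted p = 0.0056). Farsb had 39.3, 49.0, 49.1 and 45.4 CPM in E1KO 1 to 4, against 47.2, 47.8, 46.1 and 41.9 CPM in E1WT 1 to 4, and its log2 fold was -0.001 ± 0.08 (adjusted p = 0.996). The ratio of Farsa to Farsb within a library was 1.39 to 1.59 in E1KO-titled and 1.04 to 1.19 in E1WT-titled libraries, without overlap. The ratio was set up with these values in view and was not tested.

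Aars and Hars rose by smaller amounts. Aars, the alanyl-tRNA synthetase (chromosome 8, 111033144 to 111057664, plus strand), had 123, 114, 115 and 115 CPM in E1KO 1 to 4, against 94.4, 94.5, 92.0 and 106 CPM in E1WT 1 to 4, a log2 fold of 0.27 ± 0.06 (edgeR adjusted p = 0.0064). E1KO 1 and E1WT 4 were the highest library of their titles, and the titles did not overlap. Its annotated exons share 1326 bases with those of Exosc6, an exosome subunit gene on the same strand, so reads from there could not be assigned to it alone.

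Hars, for histidine (chromosome 18, 36766528 to 36783205, minus strand), had 78.0, 81.5, 84.6 and 86.4 CPM in E1KO 1 to 4, against 69.2, 71.0, 72.3 and 70.1 CPM in E1WT 1 to 4. The titles were apart, and the log2 fold was 0.23 ± 0.05 (edgeR adjusted p = 0.0094). Its mitochondrial counterpart Hars2 lies head to head with it on the plus strand (36783008 to 36792562), and the exons of the 2 genes share 195 bases. Hars2 had 46.6, 45.9, 46.2 and 47.2 CPM in E1KO 1 to 4, against 39.1, 44.9, 38.0 and 39.9 CPM in E1WT 1 to 4, a fold of 0.20 ± 0.07 (adjusted p = 0.047). E1WT 2 came close to the E1KO-titled libraries for Hars2. The library kit named in the labels does not mark strand, so a read from those 195 bases could come from Hars or Hars2. The call of Hars2 ended in 12 of 17 alternative settings (adjusted p of 0.056 to 0.15), among them 7 of the 8 settings that leave out 1 library.

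Sars and Gars were called at folds of about 1.1. Sars (chromosome 3, 108424865 to 108445209, minus strand) had 205, 203, 202 and 221 CPM in E1KO 1 to 4, against 185, 192, 176 and 184 CPM in E1WT 1 to 4 (log2 fold 0.17 ± 0.05, edgeR adjusted p = 0.035). Gars, whose transcripts give both the cytosolic and the mitochondrial glycyl-tRNA synthetase (chromosome 6, 55038007 to 55079500, plus strand), had 115, 111, 111 and 111 CPM in E1KO 1 to 4, against 100, 102, 98.3 and 102 CPM in E1WT 1 to 4 (0.16 ± 0.05, adjusted p = 0.030). For each gene all E1KO-titled values lay above all E1WT-titled ones. The call of Sars ended in 9 of the 17 alternative settings (adjusted p of 0.050 to 0.12) and that of Gars in 10 (0.052 to 0.16). The libraries whose removal ended it were E1KO 2, E1KO 4, E1WT 1, E1WT 3 and E1WT 4 for Sars, and E1KO 1, E1KO 2, E1KO 4, E1WT 1 and E1WT 3 for Gars.

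Cars and Tars were the uncalled cytosolic genes with the smallest p. Cars had 31.8, 33.4, 31.7 and 32.5 CPM in E1KO 1 to 4, against 29.6, 28.4, 28.6 and 26.6 CPM in E1WT 1 to 4, which did not overlap, with a log2 fold of 0.19 ± 0.06 (edgeR adjusted p = 0.05003). Tars, for threonine, had 68.9, 69.7, 78.2 and 73.4 CPM in E1KO 1 to 4, against 60.9, 63.9, 69.1 and 61.1 CPM in E1WT 1 to 4, with E1WT 3 inside the E1KO range (0.19 ± 0.06, adjusted p = 0.055). DESeq2 called each of them higher (adjusted p of 0.026 and 0.037). The other uncalled cytosolic genes were Dars, Eprs, Farsb, Iars, Kars, Lars, Mars, Nars, Qars, Rars, Vars and Wars, with log2 folds of -0.09 (Dars) to 0.17 (Mars). All 4 E1KO-titled libraries lay above all E1WT-titled ones for 10 of the 20 cytosolic genes and below them for 0, against 13.9% and 12.1% of all genes tested. Without TMM scaling the cytosolic counts were 15 of 20 above and 0 below, against 18.7% and 8.44% of all genes tested.

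Counts were taken inside and outside the multisynthetase complex, with no test of the difference. In the complex (Dars, Eprs, Iars, Kars, Lars, Mars, Qars and Rars) 0 of 8 genes passed edgeR, 2 were higher and 0 lower at an unadjusted p under 0.05, and DESeq2 and limma-voom called 0. Outside it 6 of 12 cytosolic genes were called higher, against 12.2% of all genes tested. The median log2 fold was 0.07 in the complex and 0.18 over the 12 cytosolic genes outside it. Eprs, the joined glutamyl- and prolyl-tRNA synthetase and the longest gene in exon length of the 36, moved to a log2 fold of 0.22 (edgeR adjusted p = 0.0058) once the trend with exon length was removed. With library totals as scaling, Kars and Mars of the complex were called higher, with Cars, Nars, Tars and Wars outside it. Of the 3 scaffold genes 0 passed edgeR (1 higher and 0 lower at an unadjusted p under 0.05, 1 higher in DESeq2 and 0 in limma-voom). Aimp1 had a log2 fold of -0.02 ± 0.08, Aimp2 of 0.11 ± 0.09 and Eef1e1, which encodes AIMP3, of 0.26 ± 0.10.

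Counts were also taken by catalytic class and by ATF4, and are to be read against the 12.2% of all genes tested that were called higher. Synthetases fall into class I, with a Rossmann fold at the active site, and class II, with an antiparallel sheet. By edgeR 5 of 10 cytosolic class II genes rose (Aars, Farsa, Gars, Hars and Sars). In class I, where Eprs was counted, 1 of 10 rose (Yars), close to the share of all genes. At an unadjusted p under 0.05 class II had 8 higher and class I 4, with 6 and 2 in DESeq2 and 5 and 2 in limma-voom. By each of these measures 0 were lower in either class. Folds were positive for 8 of 10 class II genes and 10 of 10 class I genes. Of the 12 cytosolic genes widely reported as ATF4 targets 4 rose (Aars, Gars, Sars and Yars), and of the other 8 2 rose (Farsa and Hars). Of the 5 genes with a CARE match in the promoter 3 rose (Aars, Gars and Yars), and of the 8 cytosolic genes with a promoter and no match 2 rose (Farsa and Sars). Median log2 folds were 0.19 and 0.10 in these last groups. None of these splits was tested.

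Among the mitochondrial genes, Aars2, Ears2, Vars2 and Tars2 fell. Aars2, the mitochondrial alanyl-tRNA synthetase (chromosome 17, 45506841 to 45520843, plus strand), had 16.4, 16.5, 19.7 and 18.03 CPM in E1KO 1 to 4, against 22.5, 23.4, 23.2 and 24.0 CPM in E1WT 1 to 4. The titles were clearly apart, and the log2 fold was -0.40 ± 0.08 (SE, edgeR adjusted p = 0.0052). Ears2, for glutamate (chromosome 7, 122037213 to 122067263, minus strand), had 22.5, 21.7, 19.2 and 19.6 CPM in E1KO 1 to 4, against 26.1, 26.0, 26.1 and 27.7 CPM in E1WT 1 to 4, also without overlap (-0.35 ± 0.08, adjusted p = 0.0074).

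Vars2, for valine (chromosome 17, 35655634 to 35667592, minus strand), had 52.6, 48.9, 50.7 and 50.4 CPM in E1KO 1 to 4, against 62.3, 61.4, 62.1 and 64.6 CPM in E1WT 1 to 4. The spread within each title was a few CPM and the gap was larger (log2 fold -0.30 ± 0.05, edgeR adjusted p = 0.0018). Tars2, for threonine (chromosome 3, 95739976 to 95760206, minus strand), had 61.6, 60.2, 64.1 and 56.0 CPM in E1KO 1 to 4, against 76.4, 75.8, 73.1 and 66.0 CPM in E1WT 1 to 4 (-0.27 ± 0.07, adjusted p = 0.012). E1KO 3 and E1WT 4 nearly met for Tars2, and with library totals as scaling its call ended (edgeR adjusted p = 0.051). The other 3 falls kept their call in all 17 alternative settings.

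Lars2 had the largest fold of the 36 genes and the widest spread. It lies on chromosome 9 (123366927 to 123462666, plus strand) and charges leucine in mitochondria. Its level was 1276, 1057, 719 and 903 CPM in E1KO 1 to 4, against 293, 291, 331 and 454 CPM in E1WT 1 to 4, so the titles did not overlap while libraries of 1 title differed widely. The log2 fold was 1.53 ± 0.18 (SE, edgeR adjusted p = 0.00013), and it held its call in all 17 alternative settings. Lars2 made up 62.4% to 74.1% of the summed CPM of the 16 mitochondrial genes in E1KO-titled and 37.5% to 48.6% in E1WT-titled libraries.

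The libraries highest for Lars2 within each title were also the highest for other measures. E1KO 1 and E1WT 4, its highest libraries, also had the largest share of reads in no gene (17.4% and 22.4%) and the most positive trend of expression with exon length (Spearman correlations of 0.224 and 0.317 across genes). The same libraries were highest for Rn45s, the ribosomal RNA precursor row, at 5363 and 5173 CPM. Between the titles, however, Rn45s overlapped, with 2901 to 5363 and 3821 to 5173 CPM. Rn45s was picked with its values in view, and the part of these measures in the Lars2 result was not tested. Without E1KO 1 and E1WT 4 together the Lars2 call held. The other 15 mitochondrial genes summed to 433 to 451 CPM in E1KO-titled and 477 to 489 CPM in E1WT-titled libraries, and with Lars2 the sums were 1152 to 1722 and 777 to 934 CPM.

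**Figure D3:**
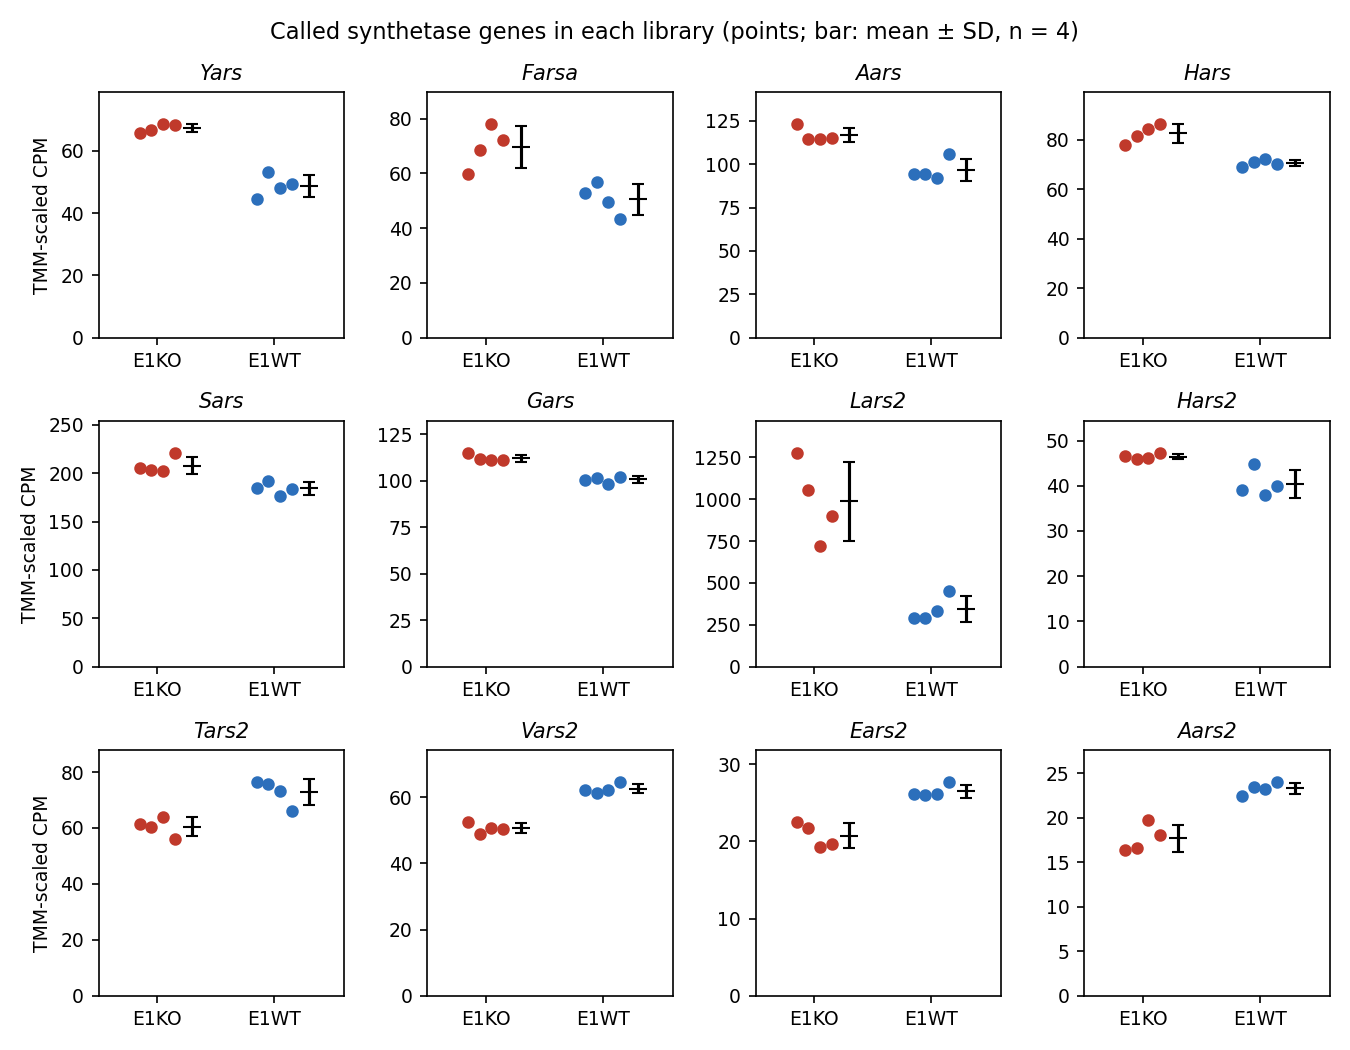
TMM-scaled CPM of the 12 called synthetase genes in each library, with the mean ± SD of 4 libraries at the right of each title and every axis starting at 0. The points of the titles do not overlap in any of the 12 panels, and Lars2 spans 719 to 1276 CPM in E1KO-titled against 291 to 454 CPM in E1WT-titled libraries.

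Nars2 and Cars2 were the uncalled mitochondrial genes with the smallest p. Nars2 had 8.72, 9.69, 10.9 and 8.60 CPM in E1KO 1 to 4, against 11.04, 12.5, 9.92 and 11.3 CPM in E1WT 1 to 4, which overlapped (log2 fold -0.24 ± 0.11, edgeR adjusted p = 0.15). Cars2 had 19.9, 22.0, 19.7 and 19.8 CPM in E1KO 1 to 4, against 21.6, 23.0, 21.5 and 24.8 CPM in E1WT 1 to 4, where E1KO 2 alone reached the E1WT range (-0.16 ± 0.08, adjusted p = 0.17). The others were Fars2, Iars2, Mars2, Pars2, Rars2, Sars2, Wars2 and Yars2, with log2 folds of -0.17 (Wars2) to 0.09 (Sars2). All E1KO-titled libraries lay below all E1WT-titled ones for 5 of the 16 mitochondrial genes and above for 2, against 12.1% and 13.9% of all genes tested. Without TMM scaling 3 of 16 lay below and 2 above, against 8.44% and 18.7%. Iars2 shares 2034 exon bases with Rab3gap2, and Fars2 shares 501 with Nrn1, each on the other strand, so these values are uncertain. The same holds to a lesser extent for Cars2 (422 bases with Naxd) and Nars2 (284 with C230038L03Rik). It also holds for the uncalled cytosolic genes Farsb (248 with Sgpp2), Cars (211 with Gm15580) and Mars (68 with Ddit3). Among called genes it holds for Vars2 (465 with Gm20483), Ears2 (89 with Ubfd1), Aars (77 with Gm24103) and Yars (30 with C77080). The part of such reads in the values was not tested.

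Set side by side, the cytosolic enzyme had the higher fold in 16 of 17 pairs that serve the same amino acid. The pairs share some genes, since Eprs was set against Ears2 and Pars2, and Fars2 against Farsa and Farsb. A ratio of 2 genes in the same library does not change with the scaling of that library. The cytosolic-to-mitochondrial ratio was higher in every E1KO-titled than in any E1WT-titled library for 9 pairs, lower in every one for Lars/Lars2, and overlapping for 7. Of all single genes tested, 26% did not overlap in either direction. No such share was taken for ratios of other gene pairs, so these counts have no background beside them. The ratios also restate the folds of the same genes given above.

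Alanine had the largest difference of the 9 pairs. The mean log2 ratio of Aars to Aars2 was 2.73 in E1KO-titled and 2.05 in E1WT-titled libraries, with ranges of 2.54 to 2.91 and 1.98 to 2.14. For Farsa to Fars2 the means were 2.15 and 1.59, and for Tars to Tars2 they were 0.26 and -0.19. For Vars to Vars2 they were 2.78 and 2.41 with ranges of 2.74 to 2.83 and 2.39 to 2.43, the narrowest spread of any pair. The other separated pairs were Nars/Nars2, Eprs/Ears2, Cars/Cars2, Wars/Wars2 and Mars/Mars2, at 0.32 to 0.39 higher in E1KO-titled libraries.

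The remaining called cytosolic genes with a partner overlapped in this ratio. Yars to Yars2 had mean log2 ratios of 2.39 and 1.95, with library values of 2.179 to 2.575 and 1.497 to 2.185. Sars to Sars2 differed by 0.07 and Hars to Hars2 by 0.02 in the mean log2 ratio. Gars has no separate mitochondrial gene. The ratios were not tested.

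**Figure D4:**
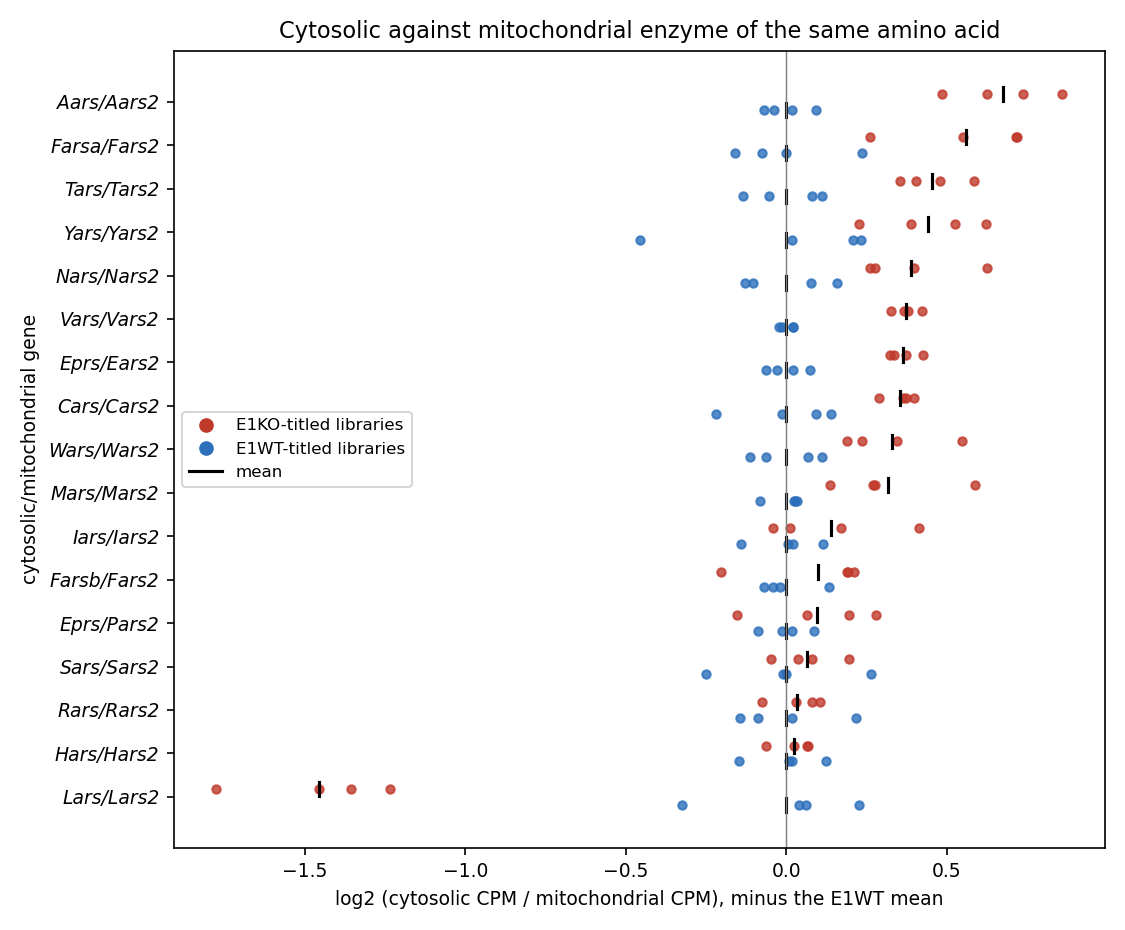
Log2 ratio of the cytosolic to the mitochondrial gene for the same amino acid in each library, set to 0 at the E1WT mean of each of the 17 pairs, with short bars for the mean of 4 libraries. The E1KO-titled libraries lie right of all E1WT-titled ones for 9 pairs, from Mars/Mars2 to Aars/Aars2 but without Yars/Yars2, and left of them for Lars/Lars2.

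ATF4 targets that are not synthetases are given beside the synthetase genes, with no test between the groups. Of 22 tested members 10 rose (45.5%, against 12.2% of all genes tested) and 0 fell in edgeR, with 12 and 1 at an unadjusted p under 0.05, 10 and 1 in DESeq2 and 10 and 0 in limma-voom, and the median log2 fold was 0.27. Asns, which makes asparagine, stood at 13.3 ± 1.28 against 3.58 ± 0.20 CPM in E1KO-titled and E1WT-titled libraries (SD, n = 4 each), a log2 fold of 1.89 ± 0.11 (edgeR adjusted p = 1.7e-06). Eif4ebp1, an inhibitor of cap-dependent translation, rose by 1.20 ± 0.14 and Sesn2, a leucine-sensing inhibitor of mTORC1 signalling, by 0.93 ± 0.15. Phgdh, the entry enzyme of serine synthesis, rose by 0.39 ± 0.06. These genes are the called ones with the smallest p. Over the 22 tested, 16 folds were positive and 6 negative. The negative ones include Ddit3 at -0.38 ± 0.13 (edgeR adjusted p = 0.054). Atf4 itself had 62.9 to 103 CPM in E1KO-titled and 50.5 to 90.1 CPM in E1WT-titled libraries, which overlapped (0.27 ± 0.17, adjusted p = 0.28). Atf4 is named here with its value already known.

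The list of the GCN2 arm holds 16 genes, namely eIF2 kinases, the GCN2 regulators Gcn1l1 and Impact, subunits of eIF2 and of its exchange factor eIF2B, eIF2 phosphatase subunits and Atf4 itself. In edgeR 2 rose and 2 fell (12.5% each), near the 12.2% and 11.1% of all genes tested. Unadjusted p-values under 0.05 numbered 2 on the higher and 6 on the lower side, and those past the threshold in DESeq2 were 2 and 4. Eif2b5, the catalytic subunit of eIF2B, rose by 0.26 ± 0.06 and Eif2s2, the beta subunit of eIF2, by 0.18 ± 0.05 on the log2 scale. Ppp1r15a, the stress-induced subunit that directs a phosphatase to eIF2, had a fold of -0.52 ± 0.10, at 22.9 to 26.3 against 31.4 to 43.1 CPM. Impact, an inhibitor of GCN2, had a fold of -0.38 ± 0.11, at 22.4 to 32.3 against 31.2 to 40.0 CPM, which overlapped. All 4 passed edgeR at adjusted p of 0.0044 to 0.031. Of 12 amino acid transporters 3 rose (25%) and 1 fell (8.33%), against 12.2% and 11.1% of all genes tested, and DESeq2 called 3 and 2. Slc7a5, a subunit of the leucine transporter, rose by 0.42 ± 0.08 at 91.3 to 119 against 75.5 to 82.3 CPM, Slc38a2 by 0.18 ± 0.05 and the low-expressed glycine transporter gene Slc6a9 by 1.11 ± 0.36 (0.911 to 1.57 against 0.358 to 1.01 CPM, which overlapped), while Slc7a6 had a fold of -0.19 ± 0.06 (edgeR adjusted p of 0.0022 to 0.044).

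Lists for the steps on either side of charging are read against the same 12.2% and 11.1%. Of 25 genes of tRNA processing and modification 2 rose and 2 fell (8% each), namely Pus7 (log2 fold 0.26 ± 0.07), a pseudouridine synthase, Tsen34 (0.31 ± 0.10), a subunit of the tRNA splicing endonuclease, Trmt1 (-0.19 ± 0.05), a methyltransferase, and Elac1 (-0.34 ± 0.09), a tRNA 3′ processing nuclease. A list of 8 genes covers the delivery of charged tRNA to the ribosome, with subunits of elongation factor 1, and the clearing of mischarged tRNA. Of these 8 genes 0 passed edgeR. At an unadjusted p under 0.05, 2 were higher and 1 lower, with 0 and 1 in DESeq2 and 0 and 0 in limma-voom. Of 19 genes of mitochondrial translation outside the synthetases 1 rose, Tufm, the mitochondrial elongation factor Tu (0.24 ± 0.06, edgeR adjusted p = 0.019), and 1 fell, Gfm2, a ribosome recycling factor (-0.20 ± 0.06, adjusted p = 0.030). DESeq2 called 2 higher and 1 lower in that list. Its median log2 fold was -0.01, against -0.14 over the 15 mitochondrial synthetase genes without Lars2.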

How the data were processed

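The deposited values are raw counts of reads per gene, made by the authors with TopHat2 2.1.0 and HTSeq 0.9.1 on mm10, per the submitters' processing notes. For the annotation, strand setting and filters, the sources are silent (not given in the sources used here). Another 5 rows per file name no gene (28.2% to 37.0% of all counts) and entered neither library sizes nor fits. Libraries were grouped by title. The labels do not tie libraries to animals: the error behind each p-value is that among libraries and could be technical. No pair within a title agreed within counting noise (chi-square over its degrees of freedom, 4.20 to 64.4).

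The members and lists were chosen with earlier results of these data known. All genes were tested in edgeR 4.0.16 (R 4.3.3) with TMM scaling, the default expression filter (count minimum 10, total 15), the quasi-likelihood test and Benjamini-Hochberg adjustment at 0.05 over all 13333 genes left. The script was tested on simulated data. It recovered 12.2% of genes changed 1.25-fold, 64.6% of those changed 1.5-fold and 80.0% of those changed 2-fold. An uncalled gene is therefore not shown to be unchanged. Far fewer genes were changed in the simulation than were called in these data, so these shares may differ here. CPM are TMM-scaled. Errors of folds are standard errors from the F statistic, those of CPM are SD over 4 libraries. TMM factors were 1.01 to 1.03 in E1KO-titled and 0.965 to 0.990 in E1WT-titled libraries. Positions and exon lengths come from GENCODE M21 (GRCm38, the assembly of mm10), with 23384 symbols matched by name and 661 by an older symbol, and promoters from RefSeq. Called synthetase genes and the 2 uncalled ones of each class with the smallest p are given in every library, and from each pathway list up to 4 called genes with the smallest p. Alternatives were DESeq2 1.42.0, limma-voom (limma 3.58.1), other scaling and filters, the replicate number as a block (replicate correlations are in the closing section), omission of each library, E1KO 1 and E1WT 4 left out together, and removal of the exon-length trend. Scaling by library totals was added after the data were seen. Figures were drawn with matplotlib 3.10.9.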

Additional observations from a re-analysis of the deposited data

Results flagged for a closer look

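In 6 of the 72 sets of 4 libraries examined (36 genes under each title), 1 library stood far from the other 3, where chance alone flags about 1 set in 20. Aars was at 123.2 CPM in E1KO 1 against 114.3 to 115.2 CPM in the other E1KO-titled libraries, and Gars at 114.8 CPM in the same library against 110.9 to 111.4 CPM. Sars was at 220.9 CPM in E1KO 4 against 201.9 to 205.2 CPM. Cars2 was at 21.98 CPM in E1KO 2 against 19.67 to 19.86 CPM. Among E1WT-titled libraries, Ears2 was at 27.69 CPM in E1WT 4 against 25.96 to 26.13 CPM, and Pars2 at 12.6 CPM in E1WT 2 against 14.65 to 14.94 CPM.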

How the results depend on the processing

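Of the 12 called synthetase genes, 8 kept their call in all 17 alternatives (Aars, Farsa, Hars, Yars, Aars2, Ears2, Vars2 and Lars2), and no called gene changed direction in any. The genes called higher were 5 rather than 8 with the DESeq2 size factors, without a filter on low counts, with the replicate block and with E1KO 1 and E1WT 4 left out together, and the mitochondrial ones 1 rather than 2 in each of these and with the exon-length trend removed. With library totals as scaling they were 14, of which 12 cytosolic, and the median log2 folds were 0.21 (cytosolic) and -0.059 (mitochondrial). The cytosolic median was 0.14 in DESeq2 and 0.11 with the exon-length trend removed. Leaving out 1 library at a time gave 5 to 9 synthetase genes higher and 4 lower, 4 to 7 cytosolic and 1 to 2 mitochondrial genes higher, a cytosolic median of 0.13 to 0.17 and a mitochondrial one of -0.15 to -0.10. The 5 came without E1KO 2, E1KO 4 or E1WT 1. The same omissions gave 8 to 10 ATF4 targets higher, 1 to 3 transporters higher, 1 to 4 genes of the GCN2 arm lower, 0 to 3 tRNA maturation genes higher and 0 to 2 mitochondrial translation genes higher. With library totals 6 tRNA maturation genes were higher and 1 lower. The cause of these shifts was not tested. The replicate number as a block gave 1151 genes higher and 1005 lower over all genes, 1 and 0 transporters, 1 and 1 in the GCN2 arm, 0 and 1 in tRNA maturation and 0 and 0 in mitochondrial translation. Libraries of the same number did not deviate together (correlations of 0.0141, -0.0480, -0.0350 and -0.0993). No sign of pairing by number was thus seen, though these correlations cannot exclude it. The smallest log2 fold called among the 36 genes was 0.16.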
